A study of Mus musculus with 3 samples.

Results

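The cadherins and catenins described here are 10 genes, taken by symbol from the 22698 genes of the table, namely the cadherins *Cdh1*, *Cdh2*, *Cdh3*, *Cdh11* and *Cdh13* and the catenins *Ctnnb1*, *Ctnna1*, *Ctnna2*, *Ctnnd1* and *Jup*. All 10 were found in the table, each under 1 Ensembl identifier. RNA-seq was performed on untreated melan-a cells, a line of pigmented mouse melanocytes on the C57BL/6J background, which the labels describe as coming from Ink4a-ARF-/- mice. The cells were kept in medium with 10% fetal bovine serum, 200 nM of the phorbol ester TPA and 200 pM cholera toxin, and the 3 replicates, numbered 1, 3 and 4, share this 1 condition. The study had no second condition in these files, so genes were compared with each other within each library.

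Cadherins are calcium-dependent adhesion molecules that bind the same or a similar cadherin on the neighbouring cell. The cytoplasmic tail of a type I or type II cadherin holds beta catenin or plakoglobin, these hold alpha catenin, and alpha catenin reaches the actin cytoskeleton, while p120 catenin binds closer to the membrane and keeps the cadherin at the surface. Beta catenin also serves as the transcriptional partner of the TCF/LEF factors in Wnt signalling. In skin, E-cadherin (*Cdh1*) joins epidermal melanocytes to keratinocytes, P-cadherin (*Cdh3*) is found in the hair follicle, and N-cadherin (*Cdh2*) is typical of mesenchymal and neural cells and of many melanomas.

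Levels are given as FPKM, read counts divided by gene length and library size, so that genes of different length can be compared, and errors are SD over the 3 replicates. Read totals are not in the files, but low values of genes with a single transcript fell on whole reads, which gave scaled library sizes of 53900000, 47000000 and 66100000 reads. A gene at 0 was compared with the level of 3 reads at its length. Values are listed to 2 decimals, which limits the precision of the lowest genes. All 8 melanocyte markers were at 1 FPKM or more in every replicate, with a summed level of 5779 to 6617 FPKM. None of the 6 keratinocyte markers was (sum 0.38 to 0.72 FPKM, with *Krt1* and *Trp63* at 0), nor any of the 4 endothelial (0.01 to 0.03 FPKM) or 3 immune markers (0.76 to 1.60 FPKM). Of the 6 fibroblast markers only *Col1a1* was (sum 1.62 to 1.96 FPKM). All 4 Schwann cell markers were, with a sum of 100.6 to 179 FPKM, and that list includes *Cdh19*. *Cdkn2a*, the locus named in the label, was at 19.24, 16.49 and 24.32 FPKM, and a value per gene does not show which exons carried the reads, so it does not check the deletion.

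Of the 10 cadherins and catenins, 5 reached 1 FPKM in all 3 replicates, beside 44.1% of all genes. These were *Cdh2*, *Ctnna1*, *Ctnnb1*, *Ctnnd1* and *Jup*, and the other 5 stayed below 0.1 FPKM in every replicate. The median of the 10 mean levels was 3.84 FPKM, which falls in the gap between the 2 sets, and the median over all genes was 0.28 FPKM. The share of the 10 genes that was detected is near the background share. *Ctnna1* ranked 210, *Ctnnb1* 295, *Cdh2* 507 and *Ctnnd1* 1163 among all genes by mean FPKM, and *Jup* ranked 6190. The same 5 genes passed a minimum of 0.5 or 5 FPKM.

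**Figure D1:**
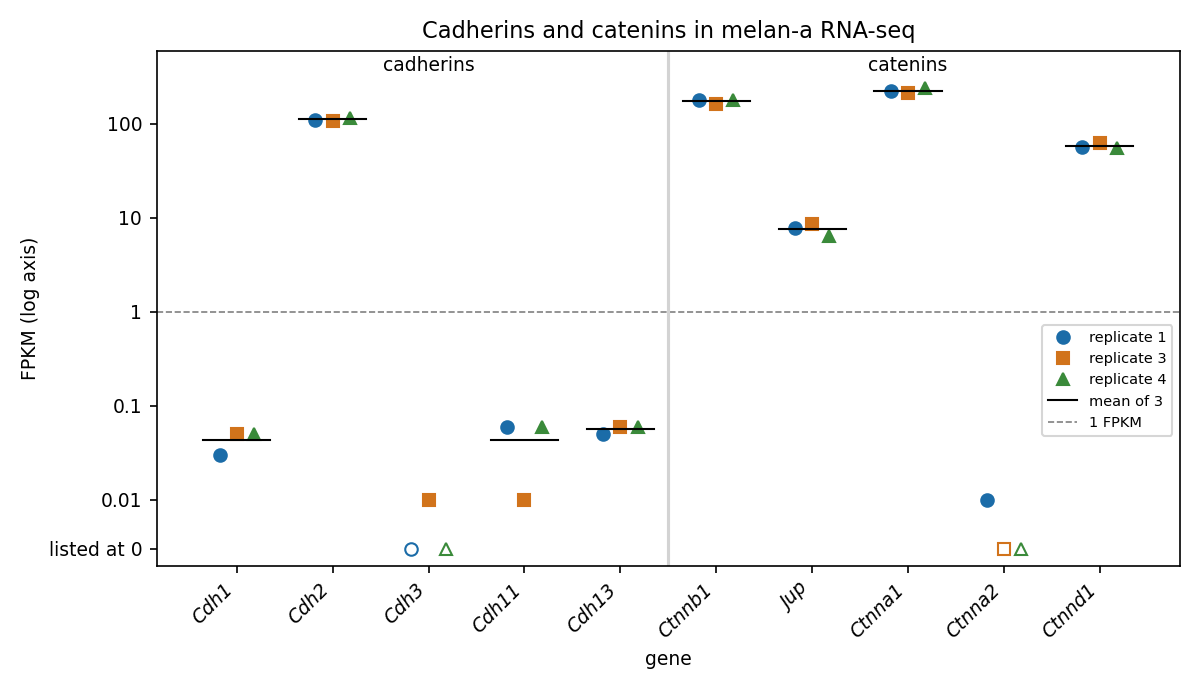
FPKM of each cadherin and catenin (log axis) in replicates 1, 3 and 4, with the mean as a black bar where it is at least 0.01 FPKM, and with open symbols for values listed at 0. Of the 10 genes 5 lie above the dashed line at 1 FPKM, from *Jup* at 6.40 to 8.68 FPKM up to *Ctnna1* at 215.04 to 238.42 FPKM, and the rest lie below 0.1 FPKM.

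*Cdh2* had the highest level of all cadherins examined. Its values were 111.21, 107.73 and 115.96 FPKM for replicates 1, 3 and 4, or 111.6 ± 4.13 FPKM (SD, n = 3). The coefficient of variation of 3.70% was small, and 97.8% of all genes had a lower mean level. The gene (ENSMUSG00000024304) lies on the minus strand of mm9 at chr18:16747386-16967755, with no other annotated gene of the table within 300 kb. It has 3 annotated transcripts in GENCODE M1. The longest of them measures 4843 bases and all exons joined measure 8066 bases, so the level depends on the length used, as described below.

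*Cdh1* was barely above the limit of detection. Its values were 0.03, 0.05 and 0.05 FPKM in replicates 1, 3 and 4, or 0.043 ± 0.012 FPKM (SD, n = 3). With the joined exon length of 4574 bases, these values stand for 7 to 8, 10 to 11 and 14 to 16 reads, so each library held more than 3 reads of *Cdh1*. In bulk RNA, a low level in all cells cannot be told apart from a higher level in a few cells. The gene (ENSMUSG00000000303) spans chr8:109127251-109194146 on the plus strand of mm9. It ranked 12807 and shared its mean level with *Cdh11*.

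*Cdh3* was listed at 0 in replicates 1 and 4 and at 0.01 FPKM in replicate 3. At its length of 3995 bases, 3 reads would have given 0.014, 0.016 and 0.011 FPKM, so no library held as many as 3 reads of *Cdh3*. Expression of P-cadherin was thus not detectable at this depth. The gene (ENSMUSG00000061048) lies at chr8:109034791-109080808 on the plus strand, 46.4 kb upstream of *Cdh1*.

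The balance of E-, N- and P-cadherin followed from these levels. *Cdh2* made up 99.97%, 99.94% and 99.96% of the summed FPKM of the 3 genes in replicates 1, 3 and 4. *Cdh1* made up 0.027%, 0.046% and 0.043%, and the share of *Cdh3* was 0.0093% in replicate 3 and 0 elsewhere. The 3 replicates therefore gave the same order, with the *Cdh2* share differing between replicates by less than 0.1 percentage points.

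*Cdh2* was 3707-fold higher than *Cdh1* in replicate 1, 2155-fold in replicate 3 and 2319-fold in replicate 4. The log2 ratio of *Cdh1* to *Cdh2* was -11.37 ± 0.42 (SD, n = 3), and the values of the 2 genes did not overlap. Rounding of *Cdh1* to 2 decimals alone leaves the fold between 3177 and 4448 in replicate 1, between 1959 and 2394 in replicate 3 and between 2108 and 2577 in replicate 4. The range of replicate 1 does not reach the others, but it does not cover the counting error of so few reads. *Cdh2* exceeded *Cdh3* by 111.6 ± 4.14 FPKM and *Cdh1* exceeded *Cdh3* by 0.04 ± 0.01 FPKM (SD, n = 3), and no fold is given against a gene below 3 reads. For each of these 3 pairs, 3 of 3 replicates had the same direction. A two-sided exact sign-flip permutation test gave p = 0.25 for each pair and an exact permutation test of 3 against 3 values gave p = 0.1, both of which are the smallest p that 3 replicates allow. Adjustment over the 6 pairs of genes compared in all left these values at 0.25 and 0.1.

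*Cdh11* and *Cdh13* were also near the limit. *Cdh11*, a type II cadherin of mesenchymal cells and osteoblasts, was at 0.06, 0.01 and 0.06 FPKM. These stand for 13 to 14, 1 to 2 and 16 to 18 reads, so in replicate 3 it was under the level of 3 reads while the other libraries were above it. *Cdh13*, which encodes T-cadherin, is anchored to the membrane by a lipid and has no tail for catenins. Its values were 0.05, 0.06 and 0.06 FPKM, and because the joined exons of its 8 transcripts measure 11153 bases, they stand for 28 to 33, 29 to 34 and 41 to 47 reads. Among these low cadherins, the values of *Cdh13* and *Cdh1* met at 0.05 FPKM and both ranges lay within that of *Cdh11*, so their order is not resolved.

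The 4 low cadherins all lie on chromosome 8. *Cdh11* (ENSMUSG00000031673) is at chr8:105156895-105309011 on the minus strand and *Cdh13* (ENSMUSG00000031841) at chr8:120807633-121848821 on the plus strand. Annotated genes of the table within 300 kb were counted as neighbours. Those at 1 FPKM in all replicates were 6 of 9 around *Cdh1*, 5 of 8 around *Cdh3*, 1 of 1 around *Cdh11* and 6 of 11 around *Cdh13*. This stands beside 44.1% of all genes, and several of these neighbours are shared by *Cdh1* and *Cdh3*. No difference from other genes is read from counts this small. *Tmco7*, which starts 12.8 kb beyond *Cdh1*, was at 2.51, 2.73 and 2.11 FPKM. *Hsbp1*, 19.6 kb beyond *Cdh13*, was at 147.77, 135.92 and 157.88 FPKM.

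The 18 type I and type II cadherins are a set that adds 14 genes to *Cdh1*, *Cdh2*, *Cdh3* and *Cdh11*. Of these 18, only *Cdh2* and *Cdh19* reached 1 FPKM in all replicates, beside 44.1% of all genes. *Cdh19*, a type II cadherin known from Schwann cell precursors and melanocytes, was at 26.66, 15.17 and 42.01 FPKM, so it was lowest in replicate 3 and highest in replicate 4. *Cdh24* followed at 0.72, 0.77 and 0.63 FPKM and *Cdh10* at 0.47, 0.35 and 0.56 FPKM. Another 7 genes were listed at 0 in every replicate, as were 7135 of all 22698 genes. The 18 genes summed to 139.22, 124.15 and 159.32 FPKM. *Cdh2* held 79.9%, 86.8% and 72.8% of this sum and *Cdh19* 19.1%, 12.2% and 26.4%, so that *Cdh2* was 4.17, 7.10 and 2.76 times as high as *Cdh19*, or 6.95, 11.8 and 4.597 times with the length of the longest transcript. The values of these 2 genes did not overlap. The summed level of the Schwann cell markers, *Cdh19* included, had the same order of replicates, and the part of such cells in the *Cdh19* values was not tested.

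**Figure D2:**
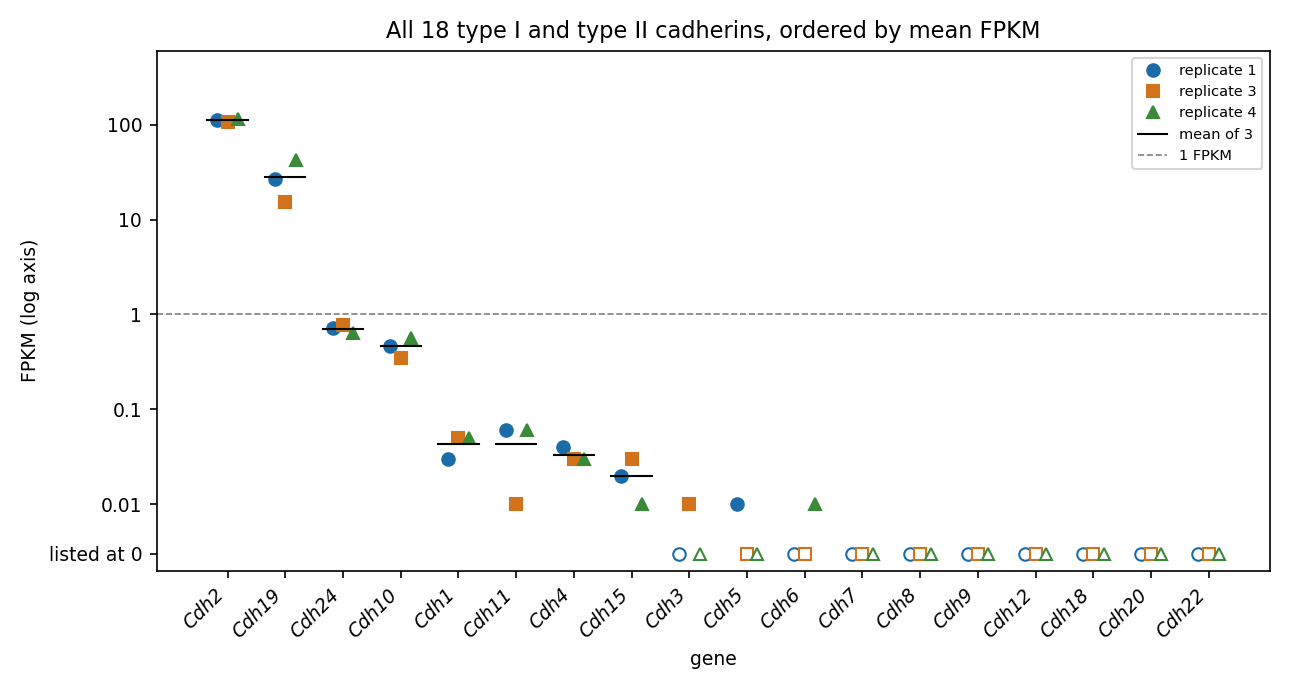
FPKM (log axis) of all 18 type I and type II cadherins in replicates 1, 3 and 4, ordered by mean, with open symbols for values listed at 0. *Cdh2* and *Cdh19* lie above the dashed line at 1 FPKM, and *Cdh19* spreads from 15.17 to 42.01 FPKM where *Cdh2* stays between 107.73 and 115.96 FPKM.

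*Ctnna1*, alpha E-catenin, was at 222.15, 215.04 and 238.42 FPKM in replicates 1, 3 and 4, or 225.2 ± 12.0 FPKM (SD, n = 3), above 99.1% of all genes. Its relative *Ctnna2*, alpha N-catenin of neurons, was listed at 0.01 FPKM in replicate 1 and at 0 in replicates 3 and 4. The 0.01 FPKM stands for 2 to 5 reads, and 3 reads would have given 0.0080, 0.0092 and 0.0065 FPKM. *Ctnna1* exceeded *Ctnna2* by 225.2 ± 12.0 FPKM, so the alpha catenin detected beside N-cadherin was alpha E-catenin. The third alpha catenin, *Ctnna3*, was at 0, 0 and 0.01 FPKM.

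*Ctnnb1*, beta catenin, was at 180.91, 161.09 and 180.67 FPKM, or 174.2 ± 11.4 FPKM (SD, n = 3). *Jup*, plakoglobin or gamma catenin, can take the place of beta catenin in the junction and also belongs to desmosomes. It was at 7.79, 8.68 and 6.40 FPKM, or 7.62 ± 1.15 FPKM, so that replicate 3 was lowest for *Ctnnb1* and highest for *Jup*. *Ctnnb1* exceeded *Jup* 23.2-, 18.6- and 28.2-fold, a log2 ratio of 4.52 ± 0.30 (SD, n = 3). It made up 95.9%, 94.9% and 96.6% of the sum of both.

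*Ctnnd1*, p120 catenin, was at 56.88, 61.91 and 54.86 FPKM, or 57.9 ± 3.63 FPKM (SD, n = 3). It was lower than beta catenin in every replicate, with *Ctnnb1* 3.18, 2.60 and 3.29 times as high, a log2 ratio of 1.59 ± 0.18. The neural relative *Ctnnd2* was listed at 0 in all replicates. For the pairs *Ctnna1* and *Ctnna2*, *Ctnnb1* and *Jup*, and *Ctnnb1* and *Ctnnd1*, 3 of 3 replicates had the same direction, with exact two-sided p = 0.25 by sign-flip and p = 0.1 by permutation, again the smallest that are possible.

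In the deposited values, the order *Ctnna1*, *Ctnnb1*, *Cdh2*, *Ctnnd1*, *Jup* held in each of the 3 replicates, and no neighbours in this order overlapped. Per unit of *Cdh2*, *Ctnna1* was at 1.998, 1.996 and 2.06, *Ctnnb1* at 1.63, 1.495 and 1.56 and *Ctnnd1* at 0.51, 0.57 and 0.47. *Ctnna1* exceeded *Ctnnb1* by a factor of 1.23, 1.33 and 1.32. With the length of the longest transcript, an alternative chosen after seeing the data, *Ctnna1* was at 1.199, 1.1985 and 1.23 per unit of *Cdh2*, *Ctnnb1* at 1.37, 1.26 and 1.32, *Ctnnd1* at 0.35, 0.40 and 0.33, and the factor of *Ctnna1* over *Ctnnb1* was 0.87, 0.95 and 0.94. The sum of *Ctnnb1* and *Jup* was 1.36, 1.37 and 1.17 times the sum of the 18 type I and II cadherins.

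**Figure D3:**
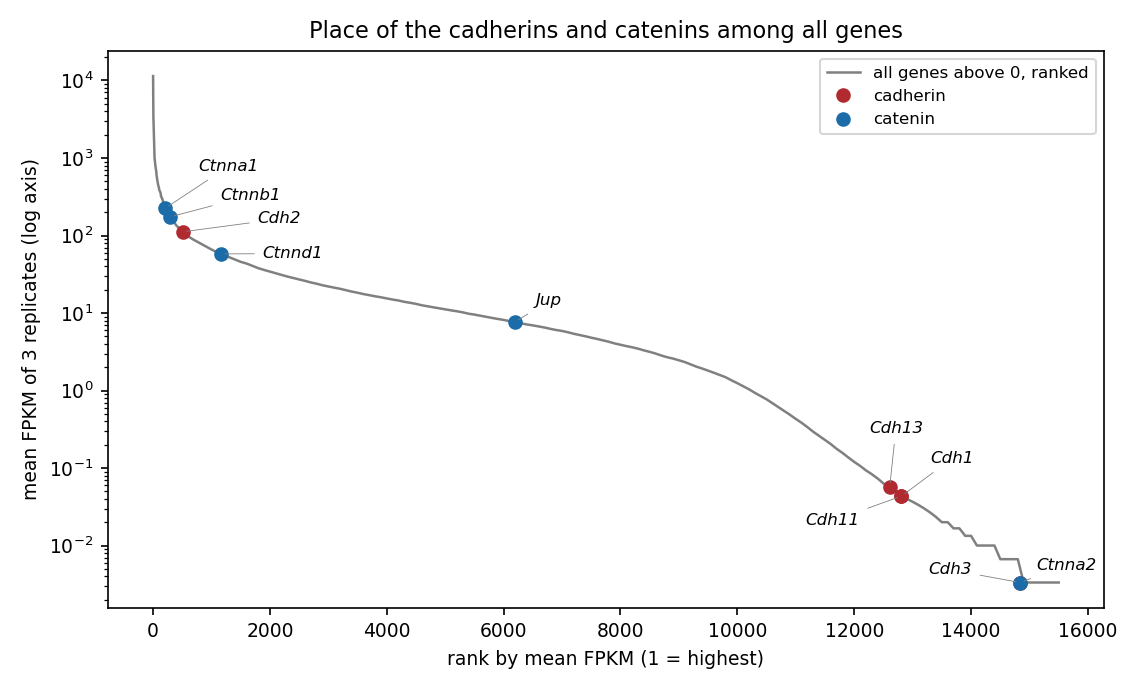
Mean FPKM over 3 replicates (log axis) against rank for all genes above 0, with cadherins in red and catenins in blue. *Ctnna1*, *Ctnnb1*, *Cdh2* and *Ctnnd1* sit on the steep left end at ranks 210 to 1163, *Jup* at rank 6190, and the other 5 on the falling right end from rank 12607 on, where *Cdh1* and *Cdh11* share a point and so do *Cdh3* and *Ctnna2*.

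Promoter sequences from RefSeq (GRCm38.p6) were matched for 4 of the 10 genes, *Ctnnb1*, *Ctnnd1*, *Ctnna2* and *Jup*. *Ctnnb1* (ENSMUSG00000006932) lies at chr9:120838334-120869625 on the plus strand of mm9, *Jup* (ENSMUSG00000001552) at chr11:100230272-100259077 on the minus strand, and *Ctnna2* (ENSMUSG00000063063) at chr6:76831631-77929693 on the minus strand. *Ctnnd1* (ENSMUSG00000034101) lies at chr2:84440228-84490922 on the minus strand.

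The 250 bases before an annotated start are shown for a high catenin, a low catenin and a catenin listed at 0 in 2 of 3 replicates. They were searched on both strands for the TFAP2 palindrome GCCNNNGGC, the factor family that the study is about, for the E-box CAGGTG, to which the SNAIL and ZEB repressors bind, and for the core CATGTG of the M-box, to which MITF binds. Matches are in capitals.
Ctnnb1 (GRCm38.p6, plus strand, chr9:120933150-120933399): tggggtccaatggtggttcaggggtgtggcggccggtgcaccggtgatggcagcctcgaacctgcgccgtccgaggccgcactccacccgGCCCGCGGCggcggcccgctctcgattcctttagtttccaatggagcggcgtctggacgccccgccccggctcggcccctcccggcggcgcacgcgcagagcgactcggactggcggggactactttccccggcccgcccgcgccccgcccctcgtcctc
Jup (GRCm38.p6, minus strand, chr11:100397791-100398040): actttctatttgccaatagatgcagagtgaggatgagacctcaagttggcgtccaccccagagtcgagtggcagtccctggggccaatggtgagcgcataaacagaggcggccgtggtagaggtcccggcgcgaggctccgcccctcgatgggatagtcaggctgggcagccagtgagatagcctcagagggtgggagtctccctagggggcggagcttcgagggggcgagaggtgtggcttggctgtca
Ctnna2 (GRCm38.p6, minus strand, chr6:77979668-77979917): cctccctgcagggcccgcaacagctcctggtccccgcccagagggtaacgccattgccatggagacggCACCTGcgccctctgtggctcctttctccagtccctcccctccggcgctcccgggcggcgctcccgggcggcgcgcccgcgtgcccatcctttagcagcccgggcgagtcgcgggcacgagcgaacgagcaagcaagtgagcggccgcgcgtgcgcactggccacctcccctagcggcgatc
The *Ctnnb1* window held a TFAP2 palindrome, 160 to 152 bases before the start, and 35 CpG dinucleotides. The *Ctnna2* window held an E-box, read as CACCTG on the gene's strand, 182 to 177 bases before the start, and 30 CpG. The *Jup* window held none of the 3 motifs and 13 CpG. Not shown are a window at a second start of *Ctnnb1*, which held the palindrome as well, and the windows of *Ctnnd1*, of which 1 held the M-box core, 200 to 195 bases before the start, and the other no motif. Over 32851 windows of this length, 13.7% held the palindrome, 17.2% the E-box and 12.3% the M-box core, and the median number of CpG was 6. The windows with the most CpG of the 3 belong to a gene at 161.09 to 180.91 FPKM and to a gene that was listed at 0 in 2 of 3 replicates. A match shows only that the letters are there, and binding was not measured in these files.

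The spread between replicates differed among the detected genes. The log2 ratio between replicates followed the GC content of the gene across 10233 genes, with Spearman's rho of -0.72 for replicates 1 and 3, 0.70 for 1 and 4 and 0.78 for 3 and 4, as a description across genes that share their libraries. Among *Cdh19* and the 5 detected genes, *Cdh19* had the lowest exon GC content, 39.8%, and *Jup* the highest, 55.7%. When each library was corrected for this trend in bins of 2% GC, *Cdh19* came to 26.3, 19.0 and 33.9 FPKM and *Jup* to 7.71, 7.78 and 7.21 FPKM. The coefficient of variation fell from 48.2% to 28.2% for *Cdh19* and from 15.1% to 4.10% for *Jup*. It rose from 3.70% to 7.61% for *Cdh2*, which came to 110.9, 120.5 and 103.6 FPKM and was then highest in replicate 3. *Ctnnd1* also rose, from 6.27% to 11.8%. The 18 cadherins summed to 138.5, 140.7 and 139.0 FPKM after the correction, where the deposited sums had ranged from 124.15 to 159.32 FPKM. The direction of each of the 6 comparisons was the same with and without the correction.

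**Figure D4:**
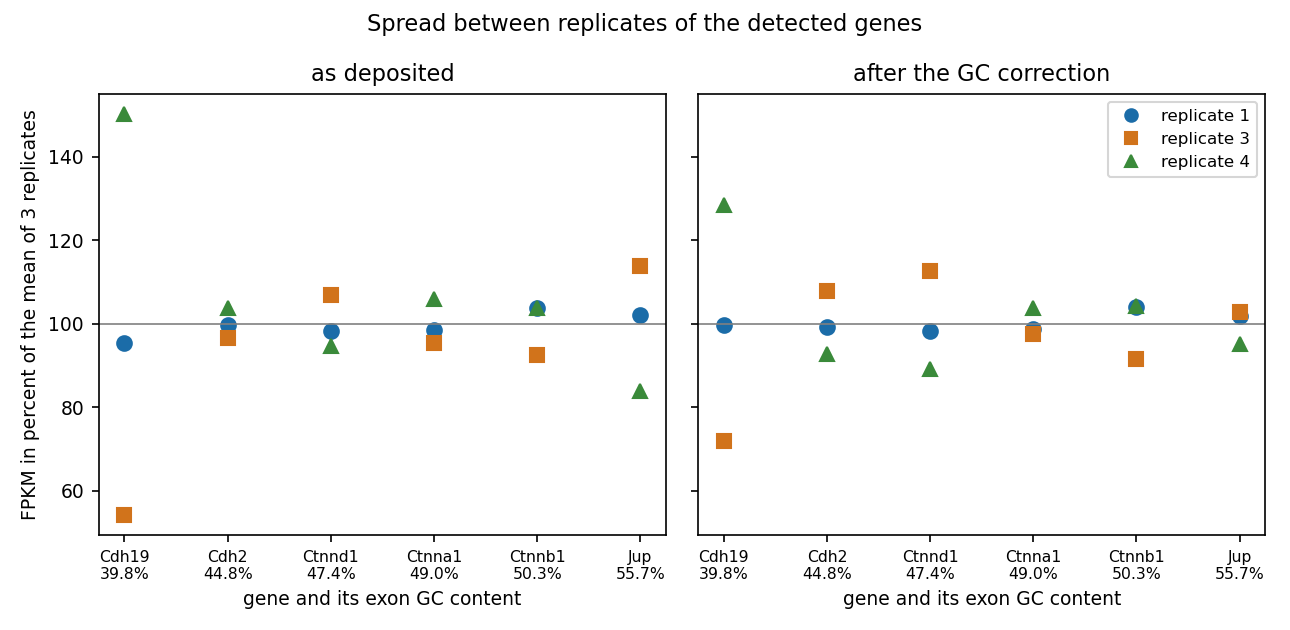
FPKM of *Cdh19* and the 5 detected cadherins and catenins in percent of the mean of the 3 replicates, as deposited (left) and after the GC correction (right), ordered by exon GC content. The points of *Cdh19* and *Jup* move closer together after the correction, those of *Cdh2* and *Ctnnd1* move apart, and *Cdh19* remains the gene with the widest spread.

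The length behind the FPKM values is not given, and it sets the comparison between genes. Low values of genes with several transcripts fell closer to whole reads with the joined exon length, at a mean distance of 0.198, 0.142 and 0.085 reads in replicates 1, 3 and 4, than with the longest transcript, at 0.226, 0.291 and 0.281 reads, over 6 to 20 genes. With the longest transcript, *Cdh2* would come to 185.9 FPKM, *Ctnnb1* to 245.2 FPKM, *Ctnnd1* to 66.6 FPKM and *Jup* to 15.3 FPKM, while *Ctnna1*, with 1 annotated transcript, would stay at 225.2 FPKM. The order of *Ctnna1* and *Ctnnb1* therefore depends on the length, and the other places in the order do not. *Ctnna1* (ENSMUSG00000037815) lies at chr18:35278542-35414427 on the plus strand. *Ctnnb1*, *Ctnna1* and *Ctnna2* overlap the genes *Ulk4*, *Lrrtm2* and *Lrrtm1* on the other strand, which were at 0.20 to 0.29, 0.42 to 0.56 and at most 0.01 FPKM. Whether reads were counted by strand is not stated.

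Among other genes of the cadherin superfamily, 6 of 32 protocadherins, FAT, CELSR, calsyntenin and related genes in the table reached 1 FPKM in all replicates, beside 44.1% of all genes. The highest were *Pcdh7* at 84.35, 79.50 and 73.80 FPKM, *Pcdh1* at 81.83, 93.99 and 56.17 FPKM, and *Clstn1*, a calsyntenin of vesicle transport, at 53.64, 58.85 and 39.42 FPKM. In the deposited values, only *Cdh2* among all cadherins of both lists was above 100 FPKM. With the length of the longest transcript, *Pcdh1* would come to a mean of 120.7 FPKM.

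Desmosomes are junctions to which *Jup* also belongs, besides its place at the tail of type I and type II cadherins. Of 14 desmosome genes, 8 were listed at 0 in every replicate, as were 7135 of all 22698 genes. Only *Pkp2*, a plakophilin, reached 1 FPKM, at 1.66, 1.80 and 1.45 FPKM, beside 44.1% of all genes. *Dsp*, desmoplakin, was at 0.03, 0.02 and 0.02 FPKM and *Pkp1* at 0, 0.03 and 0.01 FPKM. *Jup* was thus present at 6.40 to 8.68 FPKM with the desmosomal cadherins *Dsg2* listed at 0 in all replicates and *Dsc2* at 0.01, 0 and 0.01 FPKM.

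Of 7 other genes related to the catenins, 4 reached 1 FPKM in all replicates, a share near the 44.1% of all genes. *Ctnnal1*, alpha catulin, was at 64.08, 55.77 and 79.92 FPKM, *Ctnnbl1*, a splicing-associated protein with catenin-like repeats, at 20.53, 23.69 and 19.47 FPKM, and *Pkp4*, a p120 relative, at 16.91, 16.98 and 15.92 FPKM. All 3 were lower than *Ctnna1* and *Ctnnb1* in each replicate.

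Of 22 genes for actin-binding and other partners of the junction, 18 reached 1 FPKM in all replicates, beside 44.1% of all genes. *Actn4*, an alpha actinin, was the highest at 664.64, 788.24 and 552.65 FPKM, followed by the GTPases *Rhoa* at 292.03, 296.70 and 298.70 FPKM and *Rac1* at 259.13, 267.53 and 230.73 FPKM. *Pvrl2*, a nectin, was at 14.13, 15.97 and 9.47 FPKM and was the only gene of this list with a mean of at least 1 FPKM and a coefficient of variation above 25%. The genes of the lists nearest in level to *Cdh2* were *Vcl*, vinculin, which binds alpha catenin under tension, at a mean of 106.9 FPKM, and *Adam10*, the protease that cuts cadherins at the cell surface, at a mean of 120.3 FPKM. They differed from *Cdh2* by 0.06 and 0.11 in the log2 of the mean. Nearest to *Cdh1* were *Clstn3* and *Fat4* at means of 0.047 and 0.037 FPKM. *Cdh3* was tied at 0.0033 FPKM with several genes of the lists, of which *Cdh26* and *Cdh5* come first by symbol. That mean stands for 0.01 FPKM in 1 replicate and 0 in the others.

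All 13 genes of cadherin turnover and all 12 genes of the beta catenin destruction complex and its partners reached 1 FPKM in all replicates, at medians of 26.4 and 13.955 FPKM, beside 44.1% of all genes. The highest of the first list were *Adam10* at 120.79, 97.12 and 142.91 FPKM and the gamma secretase gene *Ncstn* at 87.05, 93.59 and 93.13 FPKM. In the second list *Gsk3a* led at 82.10, 92.52 and 61.40 FPKM, followed by the casein kinases *Csnk1a1* at 38.03, 34.57 and 36.19 FPKM and *Csnk1d* at 36.02, 38.35 and 31.79 FPKM. The scaffold genes *Apc2*, at 17.43, 19.88 and 10.96 FPKM, and *Apc*, at 7.46, 5.62 and 9.59 FPKM, had coefficients of variation above 25% and went in opposite directions between replicates 3 and 4. After the GC correction these fell to 12.1% and 11.6%. Both were lower than *Ctnnb1* in every replicate.

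Of 17 genes listed as cadherin gene regulators, not all of which act on transcription, 4 reached 1 FPKM in all replicates, beside 44.1% of all genes. These were *Tcf3* at 27.37, 30.65 and 20.36 FPKM, *Zeb2* at 18.44, 14.55 and 23.11 FPKM, *Snai2* at 14.30, 12.65 and 19.24 FPKM and *Tcf4* at 6.44, 5.13 and 6.91 FPKM, all of them known as repressors of *Cdh1* through E-boxes. *Snai1* was at 0.87, 1.06 and 1 FPKM, while *Zeb1* and *Twist1* were listed at 0 in every replicate. *Snai3* was at 0.05, 0.07 and 0.07 FPKM, *Twist2* at 0.07, 0.11 and 0.1 FPKM and *Klf8* at 0.01, 0.04 and 0.04 FPKM. *Grhl2*, an activator of epithelial genes, and *Ovol1*, a repressor known to act on mesenchymal regulators, were at 0, 0 and 0.01 FPKM each. Whether genes of this list act on *Cdh1* in these cells was not tested.

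**Figure D5:**
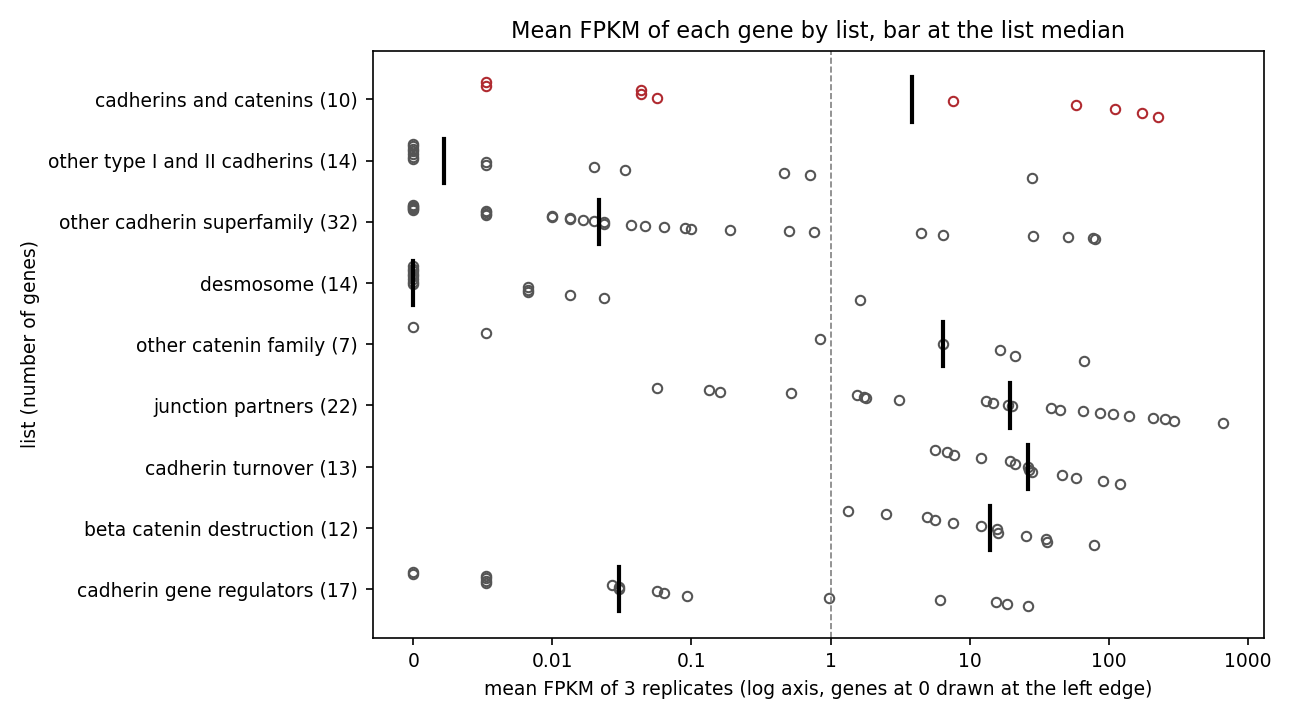
Mean FPKM over 3 replicates (log axis, genes at 0 at the left edge) of each gene in 9 lists, with the list median as a black bar and the number of genes in brackets. The turnover and destruction lists lie wholly above the dashed line at 1 FPKM, 1 gene each of the desmosome list and of the other type I and II cadherins lies above it, 6 of the 32 other superfamily genes do, and the 10 cadherins and catenins split into 5 on each side.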

How the data were processed

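RNA-seq values of 3 replicates of untreated melan-a cells were used, 1 table per replicate. Per the labels and the study's methods, the authors made stranded mRNA libraries, removed 10 bases from each 5′ end, mapped to mm9 with STAR 2.3.0e, discarded rRNA, and ran htseq-count 0.5.3p3 on Ensembl release 67. The authors deposited FPKM values with TMM scaling (trimmed mean of M values), given to 2 decimals. How counts became FPKM and the gene length used are not given in the sources used here, and edgeR is only named among the tools in the submitters' processing notes. Nothing says whether the replicates came from separate cultures, so the p-values cover only these 3 libraries. Each is the smallest that 3 replicates allow. It reflects a shared direction or values that do not overlap, and it does not measure the spread between replicates. The permutation of 3 against 3 values also ignores that both genes were read in the same libraries.

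Positions, exon lengths and GC content came from GENCODE M1 (mm9, Ensembl release 65), which holds 22324 of the 22698 genes. No count test was run, since the values are not counts. Scaled library sizes were taken as the sizes at which low values of 57, 54 and 60 single-transcript genes fell on whole reads, at a mean distance of 0.040, 0.035 and 0.052 reads where the median over all sizes tried was 0.276, 0.263 and 0.262. No library repeats another, since the log2 ratios between replicates had SDs of 0.239, 0.287 and 0.479. Reads of genes with several transcripts assume the joined exon length, and limits of 3 reads cover counting error only. The scripts were tested on simulated data. Pairs of genes were compared within each replicate, without a pseudocount, by exact two-sided permutation tests with Benjamini-Hochberg adjustment over 6 pairs. Where a gene was below 3 reads in a replicate, the difference in FPKM was used in place of the planned log2 ratio.

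The members and the gene lists were chosen with earlier results of these data known. Named are all members, the 3 highest genes of each list, genes with a coefficient of variation above 0.25 and a mean of at least 1 FPKM, and the 2 genes nearest in level to *Cdh1*, *Cdh2* and *Cdh3*, of which 1 gene is not reported here. *Tcf4*, *Snai1*, *Snai3*, *Zeb1*, *Twist1*, *Twist2*, *Klf8*, *Grhl2*, *Ovol1*, *Ctnna3*, *Ctnnd2*, *Dsg2*, *Dsc2*, *Tmco7* and *Hsbp1* were named after their values were seen. Alternatives were a pseudocount of 1 FPKM, the median, a GC correction, the longest transcript, rescaling to TPM, other detection limits and each replicate left out. Python 3.11.15, numpy 2.4.6, pandas 2.3.3, scipy 1.17.1 and matplotlib 3.10.9 were used.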

Additional observations from a re-analysis of the deposited data

How the results depend on the processing

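None of the 6 comparisons changed direction under any alternative, but their size depended on the pseudocount and on the gene length. With replicates left out in turn, the log2 ratio of *Cdh1* to *Cdh2* lay between -11.52 and -11.13, that of *Ctnnb1* to *Jup* between 4.38 and 4.68, and that of *Ctnnb1* to *Ctnnd1* between 1.52 and 1.69. A pseudocount of 1 FPKM shrank the log2 ratio of *Cdh1* to *Cdh2* to -6.75 and set the shares of *Cdh1*, *Cdh2* and *Cdh3* at 0.911%, 98.2% and 0.876%, since the pseudocount exceeds the levels of *Cdh1* and *Cdh3*. With the longest transcript in place of the joined exons, the log2 ratio of *Cdh1* to *Cdh2* was -12.06, that of *Ctnnb1* to *Jup* 4.01 and that of *Ctnnb1* to *Ctnnd1* 1.88, *Cdh2* exceeded *Cdh3* by 185.9 FPKM, and the share of *Cdh1* was 0.024% and that of *Cdh2* 99.97%. The deposited values sum to 358891 to 394507 FPKM per library, and rescaling each to the same total (TPM) raised every gene 2.53- to 2.79-fold, to mean levels of 0.115 for *Cdh1*, 296.6 for *Cdh2*, 0.117 for *Cdh11*, 0.150 for *Cdh13*, 463.1 for *Ctnnb1*, 598.6 for *Ctnna1*, 153.3 for *Ctnnd1* and 20.1 for *Jup* (TPM). The 5 detected members were the same under every detection limit and with any replicate left out, beside 30.8% to 47.0% of all genes, or 64.3% of those above 0. No pairing of samples was possible because they form a single group, and pairs of genes were compared within each library. Depth limits statements on *Cdh1*, *Cdh3*, *Cdh11*, *Cdh13* and *Ctnna2*, which rest on 47 reads or fewer per library.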
